A study of Rattus norvegicus with 24 samples.

Results

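The 12 libraries described here are the left ventricles of rats taken 1 day and 3 days after complete transection of the spinal cord, 6 libraries at each time, out of 24 libraries in the series. They were selected by their labels, as all libraries of those 2 collection times, and no measured value was used to pick a library. The comparison itself was chosen with earlier results of these data known. The animals were male Wistar rats, a common outbred strain. Every rat of both groups had a high thoracic complete transection (spinal cord injury, SCI). The treatment and tissue labels are the same for both groups, which differ by the day of collection and by their library numbers. The tissue was the free wall at the middle level of the left ventricle, which was flash frozen. Sham rats, which had a durotomy (an opening of the dura) at the same level with the cord left whole, were collected 7 days after surgery and serve here as the starting level. A further 6 libraries from 12 weeks after transection share the same model and are used for the spread and for values outside the contrast. Whether every library comes from its own rat is not written in the labels; where it does not, part of the spread behind the p-values is technical.

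The neurons that drive the sympathetic nerves of the heart lie in the thoracic spinal cord, and they take their commands from the brainstem through fibres that run down the cord. A complete transection at a high thoracic level cuts those fibres, so that sympathetic outflow below the injury loses its control from the brain, while the vagus nerve, which leaves the brainstem directly, is spared. The days after such an injury also carry the stress of surgery, altered blood pressure and heart rate, and immobility. The comparison of 3 days with 1 day asks which RNA levels of the ventricle moved between these early times.

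Total counts per library, over the genes of the table, were 41326217 to 62308617 at 1 day and 16756399 to 48966088 at 3 days. The shallowest was 3 day replicate 5, which also stood apart from its group: its mean correlation with the other 3 day libraries was 0.960, against 0.972 to 0.978 for the other 3 day libraries and 0.982 to 0.984 among those of 1 day (log2 CPM, counts scaled to a common library total, over 15065 genes). By their labels, the 3 day libraries are numbered 57 to 62 and those of sham 63 to 68, while 1 day has the numbers 77 to 82 and 12 weeks 83 to 88. The collection time is therefore tied to the run of numbers, and the 2 cannot be told apart in this contrast; no label says what the numbers stand for. The deposited table identifies genes by Ensembl ID only, so the groups below are defined by direction and pattern, cell type markers of heart tissue were not checked, and only 4 genes are printed by ID. In bulk tissue a lower level from fewer cells of a type and one from less RNA per cell cannot be told apart.

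Between 1 day and 3 days a small part of the tested genes was called as changed, about as many down as up, and most by little. Of the 15065 genes tested, 186 were higher at 3 days and 227 were lower (edgeR quasi-likelihood test, Benjamini-Hochberg adjusted p under 0.05). These are 1.23% and 1.51% of the tested genes, or 2.74% together. Called genes differed by a median of 1.27-fold in the upward and 1.32-fold in the downward direction. The lower and upper quartiles were 1.20-fold and 1.49-fold for the higher genes, and 1.24-fold and 1.47-fold for the lower genes. Only 27 higher and 18 lower genes changed by over 2-fold, and 1 gene each way by over 4-fold. A further 154 genes differed by over 2-fold without passing the test. Before adjustment, 2664 of the 15065 genes had an edgeR p under 0.05. Genes that were not called are therefore not shown to be unchanged.

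**Figure D1:**
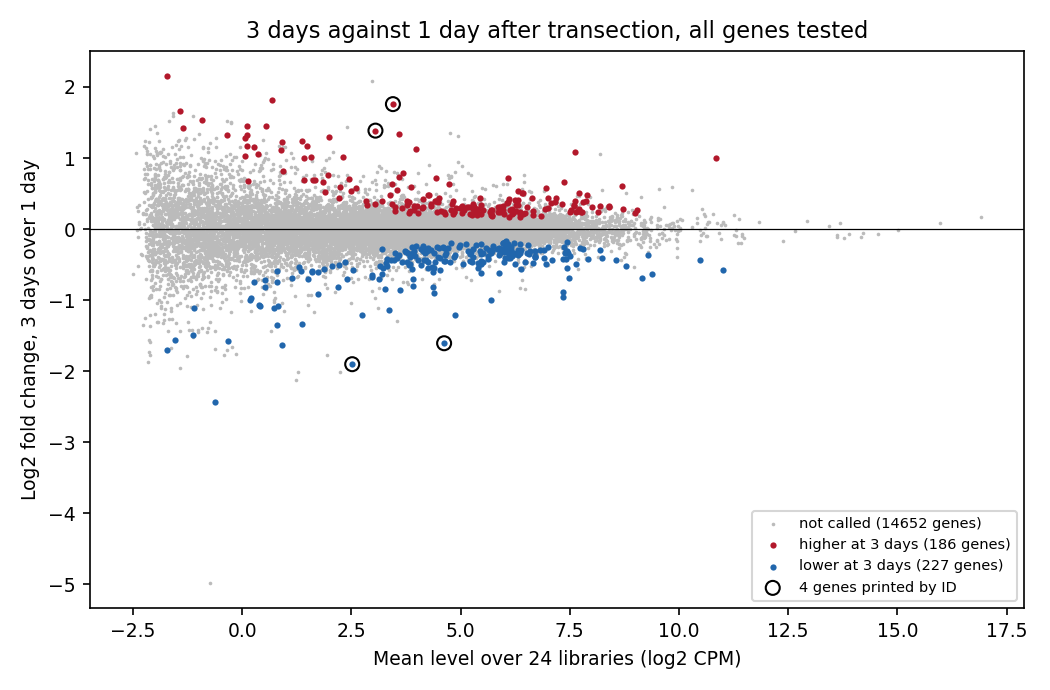
Log2 fold change of 3 days over 1 day (vertical) against the mean level over the 24 libraries in log2 CPM (horizontal), 1 point per tested gene. The 186 genes higher at 3 days (red) and the 227 lower (blue) lie mostly close to 0 where levels are high. There are exceptions, such as a called gene at 10.9 log2 CPM with a log2 fold change of 1.00. The larger called changes lie mostly at low levels, and circles mark the 4 genes printed by ID.

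The called changes lay mostly among well expressed genes. In genes with a mean under 1 log2 CPM, 1.07% of the 3458 tested were called, with a median size of 2.26-fold. Between 3 and 5 log2 CPM the share was 2.84% of 4440 genes. Above 7 log2 CPM it was 6.46% of 929 genes, with a median size of 1.28-fold. The median standard error of a log2 fold change was 0.324 in the lowest class and 0.0924 between 3 and 5 log2 CPM. It was 0.0728 between 5 and 7 log2 CPM, where 4.59% were called, and 0.0766 above 7. Precision differed most between the lowest class and the others, and the part it has in the shares was not tested.

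In many called genes the 6 libraries of each time did not overlap at all. All 3 day libraries were above all 1 day libraries in 85 of the 186 higher genes, and all were below in 81 of the 227 lower genes. Over all genes tested such a separation was found upward in 1.13% and downward in 0.916%. The same libraries set the call and the separation, so the counts describe the called genes and add no support to them. Genes seen at only one of the times were rare: 8 IDs had no count in any 3 day library and a count in at least 5 of the 1 day libraries, and 1 ID had the reverse pattern. The 1 day libraries were also the deeper ones, and the part of depth in these counts was not tested.

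The gene with the largest rise among called genes of at least 1 log2 CPM was ENSRNOG00000019183. Its level in the 1 day libraries, from replicate 1 to replicate 6, was 18.0, 4.92, 3.90, 5.86, 13.9 and 8.75 CPM. In the 3 day libraries it was 8.06, 18.1, 27.8, 78.6, 14.7 and 39.8 CPM. Replicates 3, 4 and 6 of 3 days lay above every 1 day library, replicate 2 barely did so, and replicates 1 and 5 fell inside the 1 day range. The mean went from 9.23 ± 5.62 to 31.2 ± 25.7 CPM (SD, n = 6 each), a log2 fold change of 1.76 (SE 0.435, edgeR adjusted p = 0.029). Sham stood at 2.32 ± 0.583 CPM and 12 weeks at 0.969 ± 0.692 CPM (SD, n = 6 each), so that each early library lay above all sham libraries, which reached 2.98 CPM. The gene's high level was thus limited to the early times among these groups, and its mean moved farther from sham between 1 day and 3 days. The call was lost without 1 day replicate 2, 3 or 4 and without 3 day replicate 4 or 6. The lowest value, without 3 day replicate 4, was 1.23 (edgeR adjusted p = 0.116). With only the 12 libraries compared in the fit, the edgeR adjusted p was 0.0856.

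ENSRNOG00000033100 showed the second largest rise, with a different pattern. Its level in the 1 day libraries was 3.55, 4.55, 4.23, 3.20, 2.96 and 2.72 CPM in order of replicate. The 3 day libraries had 6.12, 9.55, 7.72, 5.22, 17.1 and 10.3 CPM, and none of them overlapped the 1 day libraries. The mean rose from 3.53 ± 0.725 to 9.35 ± 4.28 CPM (SD, n = 6 each), a log2 fold change of 1.39 (SE 0.296, edgeR adjusted p = 0.0147). Sham stood at 8.90 ± 2.79 CPM, with 5.79 CPM as its lowest library, and 12 weeks at 11.7 ± 5.31 CPM (SD, n = 6 each). The 1 day group was thus the one that stood apart, below every library of the other groups, and the 3 day mean was close to the sham mean. Its call held without any single one of the 12 libraries, with log2 fold changes of 1.14 without 3 day replicate 5 to 1.51 without 3 day replicate 4. For this gene 12 weeks, which shares the run of library numbers with 1 day, lay on the side of 3 days.

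The largest fall was that of ENSRNOG00000020136. The 1 day libraries had 17.1, 7.14, 9.24, 15.8, 9.88 and 1.83 CPM in order of replicate. The 3 day libraries had 1.20, 2.37, 3.60, 1.29, 1.75 and 6.02 CPM. Apart from 1 day replicate 6, which lay within the 3 day range, every 1 day library was above every 3 day library. The mean fell from 10.2 ± 5.65 to 2.71 ± 1.85 CPM (SD, n = 6 each), a log2 fold change of -1.90 (SE 0.477, edgeR adjusted p = 0.0303). Sham stood at 3.15 ± 1.86 and 12 weeks at 6.51 ± 4.03 CPM (SD, n = 6 each), so that 3 days was near sham and 12 weeks lay between sham and 1 day. The call was lost without 1 day replicate 1, 4 or 5 and without 3 day replicate 1, 2 or 4. In those fits the log2 fold change was -1.69 to -1.91, with edgeR adjusted p-values of 0.0613 to 0.0730. The adjusted p was 0.0575 with only the 12 libraries compared (edgeR) and 0.0899 with limma-voom.

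The second largest fall, that of ENSRNOG00000009450, rested on a single library. The 1 day libraries had 147, 34.3, 25.1, 46.0, 21.4 and 15.0 CPM in order of replicate, and the 3 day libraries 22.4, 5.46, 19.7, 17.1, 12.9 and 17.2 CPM. Replicate 1 of 1 day was more than 3 times as high as any other library, and the rest of the 1 day libraries overlapped those of 3 days. The mean was 48.2 ± 49.8 CPM at 1 day and 15.8 ± 5.97 CPM at 3 days (SD, n = 6 each), with a log2 fold change of -1.61 (SE 0.442, edgeR adjusted p = 0.0483). Without 1 day replicate 1 the log2 fold change was -0.84 (edgeR adjusted p = 0.196). Among the fits without 1 of the 12 libraries the gene was called only without 1 day replicate 3 or 6. The adjusted p was 0.109 with only the 12 libraries compared (edgeR) and 0.105 with limma-voom. Sham stood at 17.4 ± 6.54 CPM and 12 weeks at 16.8 ± 7.01 CPM (SD, n = 6 each), both close to 3 days.

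**Figure D2:**
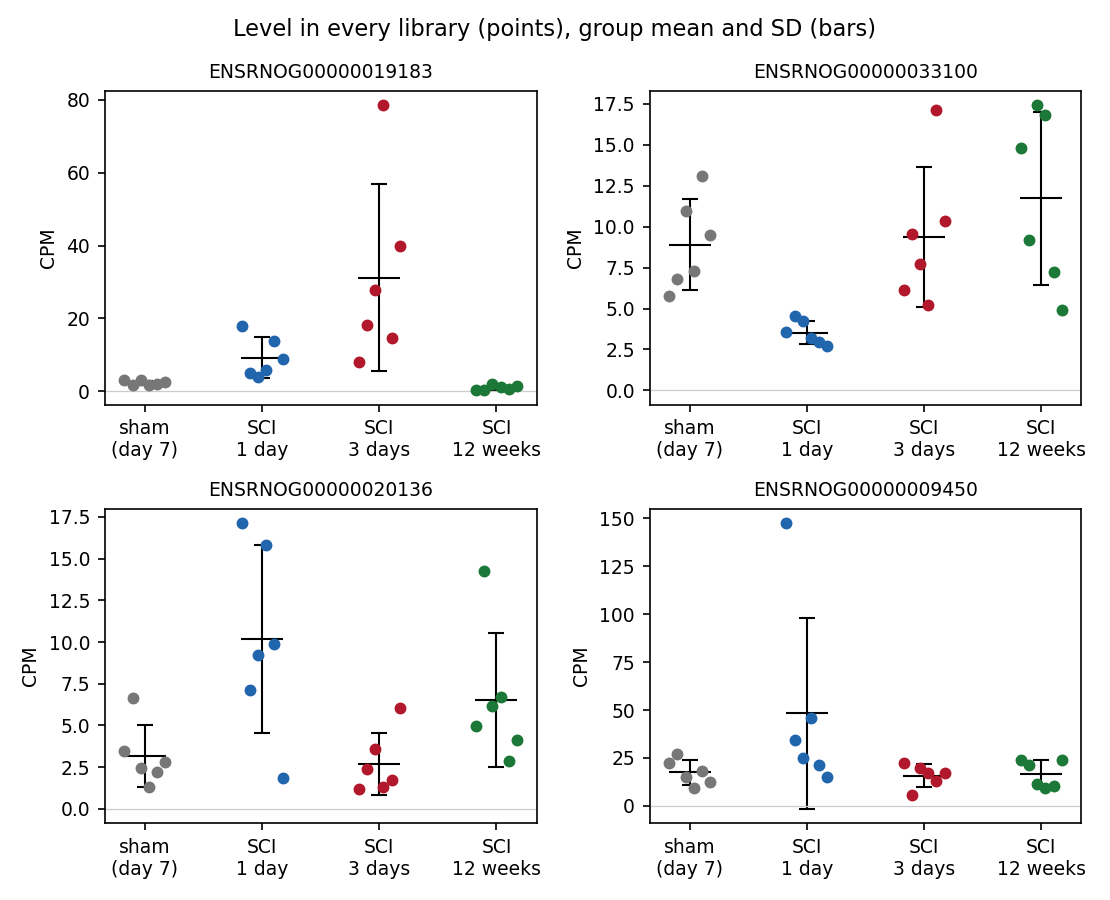
Level in CPM (vertical, linear) of the 4 genes printed by ID in each of the 24 libraries (points), with the mean and SD of each group of 6. ENSRNOG00000019183 is raised at both early times and most at 3 days, ENSRNOG00000033100 is lowest at 1 day, and 1 library at 147 CPM sets the 1 day mean of ENSRNOG00000009450.

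Against the sham level, the higher genes were mostly genes that stood below sham at 1 day. On the log2 CPM scale their median difference from sham was -0.26 on day 1, 0.09 on day 3 and -0.08 at 12 weeks. The 3 day mean was nearer to sham than the 1 day mean in 136 of the 186 higher genes (73.1%), against 54.7% over all genes tested. In 51 of the 136 the 3 day mean stayed on the same side of sham, with medians of -0.43 at 1 day and -0.08 at 3 days. In the other 85 it lay slightly past sham, with medians of -0.27 and 0.09. In 17 genes both means lay on the same side of sham and the 3 day mean farther out, going from a median of 0.13 to 0.57, and ENSRNOG00000019183 was one of these. The remaining 33 changed sides and ended farther from sham than they had been, from -0.07 to 0.23. Sham shares its run of library numbers with 3 days and was collected 7 days after surgery, which matches neither time. Here and for the lower genes below, nearness to sham and the shared run cannot be told apart.

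The lower genes were split more evenly between those nearer to sham at 3 days and those farther from it. Here the median difference from sham was 0.27 on day 1, -0.14 on day 3 and 0.12 at 12 weeks. The 3 day mean was nearer to sham in 134 of the 227 (59.0%). Of these, 70 kept the same side, with medians of 0.67 at 1 day and 0.19 at 3 days, and 64 lay past sham, with medians of 0.29 and -0.12. Another 24 moved farther out on the same side, from a median of -0.06 to -0.41. In 69 genes the level was slightly above sham at 1 day (median 0.10) and farther below it at 3 days (median -0.28). Over all 15065 genes tested the 3 day mean was the nearer one in 54.7%. Since libraries of 1 day enter the call as well as the distance from sham, these shares describe levels and were not tested. Calling the genes without each of the 12 libraries in turn gave 60.8 to 78.0% for the higher genes and 50.7 to 64.7% for the lower genes. Only the set of called genes changed there, and the distances from sham were still those with all libraries.

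The called genes with changes of over 2-fold were mostly of low level, with 16 of 27 higher and 12 of 18 lower genes under 1 log2 CPM. The 27 higher genes had a median difference from sham of -1.06 at 1 day and 0.25 at 3 days, and in 22 of them the 3 day mean was the nearer one to sham. For the 18 lower genes it was 1.05 at 1 day and -0.30 at 3 days, and in 13 of them 3 days was nearer. The share of all tested genes nearer to sham at 3 days was 54.7%. At 12 weeks the medians of these groups were 0.19 and 0.64. The 6 libraries of each time did not overlap in 9 of the 27 and in 2 of the 18. Such a separation was thus rarer here than among called genes of any size, where it reached 45.7% upward and 35.7% downward. With every tested gene included it was 1.13% upward and 0.916% downward. No test was made of these differences.

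How firmly each library carried its time was measured with genes called in a fit without that library. For every such gene the mean of the remaining 1 day libraries was set to 0 and that of the remaining 3 day libraries to 1, and the library's position is the median over the genes. On genes higher at 3 days the 1 day libraries took positions of 0.05 to 0.34 and the 3 day libraries 0.34 to 0.84. On genes lower at 3 days the ranges were -0.23 to 0.43 and 0.45 to 1.13. The 2 groups thus did not overlap on the lower genes, but 1 day replicate 6 at 0.428 and 3 day replicate 5 at 0.446 lay close together. Each was placed on its own set of genes. On the higher genes they met at a single pair, with 1 day replicate 2 at 0.344 and 3 day replicate 5 at 0.342. That 3 day library was the least typical of its group, at 0.342 and 0.446 where the other 3 day libraries lay at 0.671 to 0.843 and 0.671 to 1.13. Among the 1 day libraries, replicate 1 had the lowest position on the higher genes (0.05) and replicate 5 on the lower genes (-0.23).

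The sham and 12 week libraries were placed with the 186 and 227 called genes and the means of all 1 day and all 3 day libraries. Their positions are therefore not strictly comparable with those above, which used genes and means without the library placed. The sham libraries lay at 0.62 to 0.81 on the higher genes and 0.44 to 0.81 on the lower genes. All were nearer to 3 days than to 1 day except sham replicate 2 on the lower genes. The 12 week libraries lay at 0.26 to 0.55 and 0.20 to 0.52, nearer to 1 day in 4 of 6 libraries on the higher genes and in 5 of 6 on the lower genes. Neither group was an arm of the contrast that chose the genes, but both entered the filter, the scaling and the shared spread of that fit. Sham and 3 days share a run of library numbers, as do 12 weeks and 1 day.

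**Figure D3:**
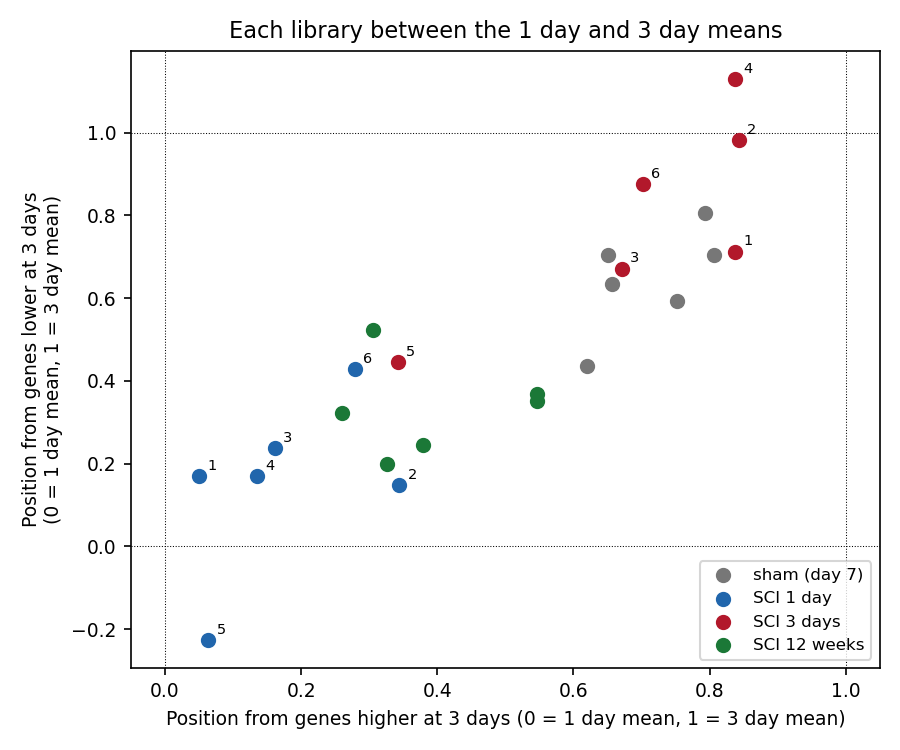
Position of each of the 24 libraries between the 1 day mean (0) and the 3 day mean (1), from genes higher at 3 days (horizontal) and from genes lower at 3 days (vertical), with the 1 day and 3 day libraries placed on genes called without them and the sham and 12 week libraries on the 186 and 227 called genes; numbers are replicates. Most 1 day libraries lie at the lower left, and 5 of the 6 libraries of 3 days and most sham libraries at the upper right. The 1 day replicate 6 lies at 0.279 and 0.428, near the 12 week libraries. Sham replicate 2 lies lower on the vertical axis, at 0.435, and 3 day replicate 5 lies at 0.342 and 0.446 near the 12 week libraries.

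The levels of sham and 12 weeks were set beside the contrast, since these groups come from the same runs of library numbers. For a gene that differed only by run, sham minus 12 weeks would have the same sign as 3 days minus 1 day. The signs were the same in 126 of the 186 higher genes (67.7%) and in 168 of the 227 lower genes (74.0%), against 52.5% over all genes tested. For genes called in the fit of only the 12 libraries compared, 119 higher and 140 lower, the shares were 59.7% and 66.4%. Among the 50 genes with the smallest p-values, a number chosen after the values were seen, 37 had the same sign (74.0%). The differences outside the contrast were smaller: the median was 0.341 for 3 days minus 1 day and 0.08 for sham minus 12 weeks in the higher genes, and -0.40 and -0.14 in the lower genes. The called genes of over 2-fold differed by direction, with the same sign in 10 of the 27 higher and in 14 of the 18 lower genes. Signs were opposite in 60 higher and 59 lower genes. Among them were ENSRNOG00000033100, with -0.39 for sham minus 12 weeks, and ENSRNOG00000009450, with a value near 0 (0.07). The other genes printed by ID had the same sign, ENSRNOG00000019183 with 1.21 and ENSRNOG00000020136 with -1.03. Sham and 12 weeks also differ by the injury and by time, so this comparison does not separate a run from biology.

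**Figure D4:**
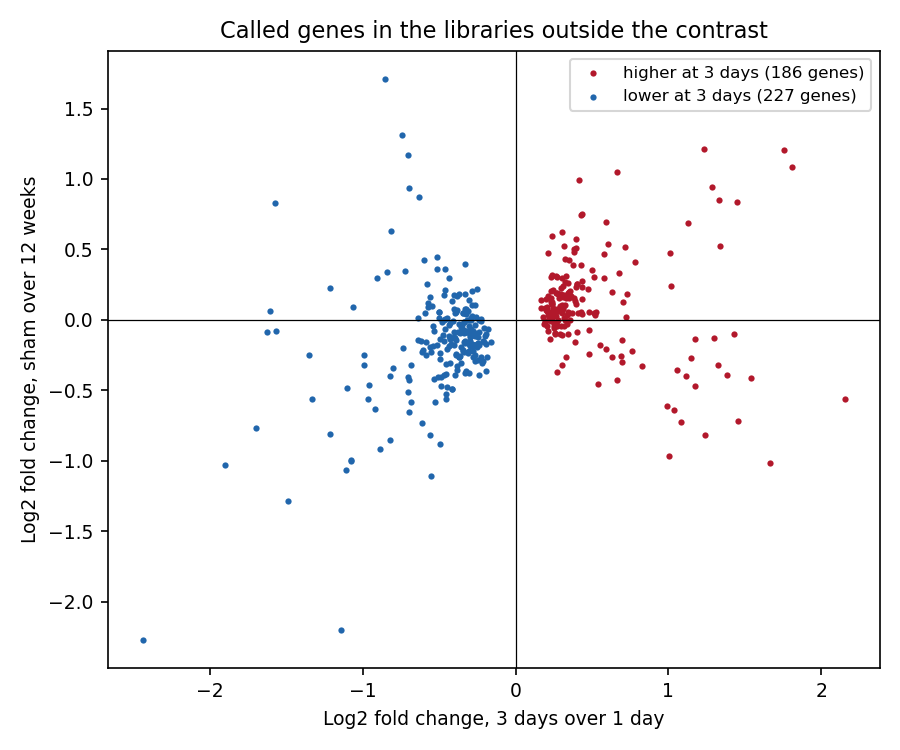
Log2 fold change of sham over 12 weeks (vertical) against that of 3 days over 1 day (horizontal) for the 186 genes higher (red) and the 227 lower (blue) at 3 days, 1 point per gene. Of the higher genes 126 lie above 0 and of the lower genes 168 lie below 0, while 60 and 59 lie on the opposite side.

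The counts of called genes moved strongly with single libraries. Without 1 day replicate 5, the edgeR test called 77 higher and 93 lower genes, and without 3 day replicate 5 it called 285 and 328. The higher count was also more than 1.5 times smaller without 1 day replicate 1 (90) or 4 (102) and without 3 day replicate 2 (119), 4 (84) or 6 (118). For the lower count this held without 1 day replicate 1 (149) and without 3 day replicate 2 (140) or 4 (101). Leaving out replicate 5 of both times together gave 127 higher and 162 lower genes. Of the 186 and 227 genes, 52 higher and 76 lower ones were called in each of the 12 fits without 1 library. Their median sizes were 1.31-fold and 1.32-fold. ENSRNOG00000033100 was the 1 gene of the 4 printed by ID that belonged to them. In 38 of the 52 (73.1%) and 54 of the 76 (71.1%) the sign outside the contrast was the same, against 52.5% over all genes tested.

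**Figure D5:**
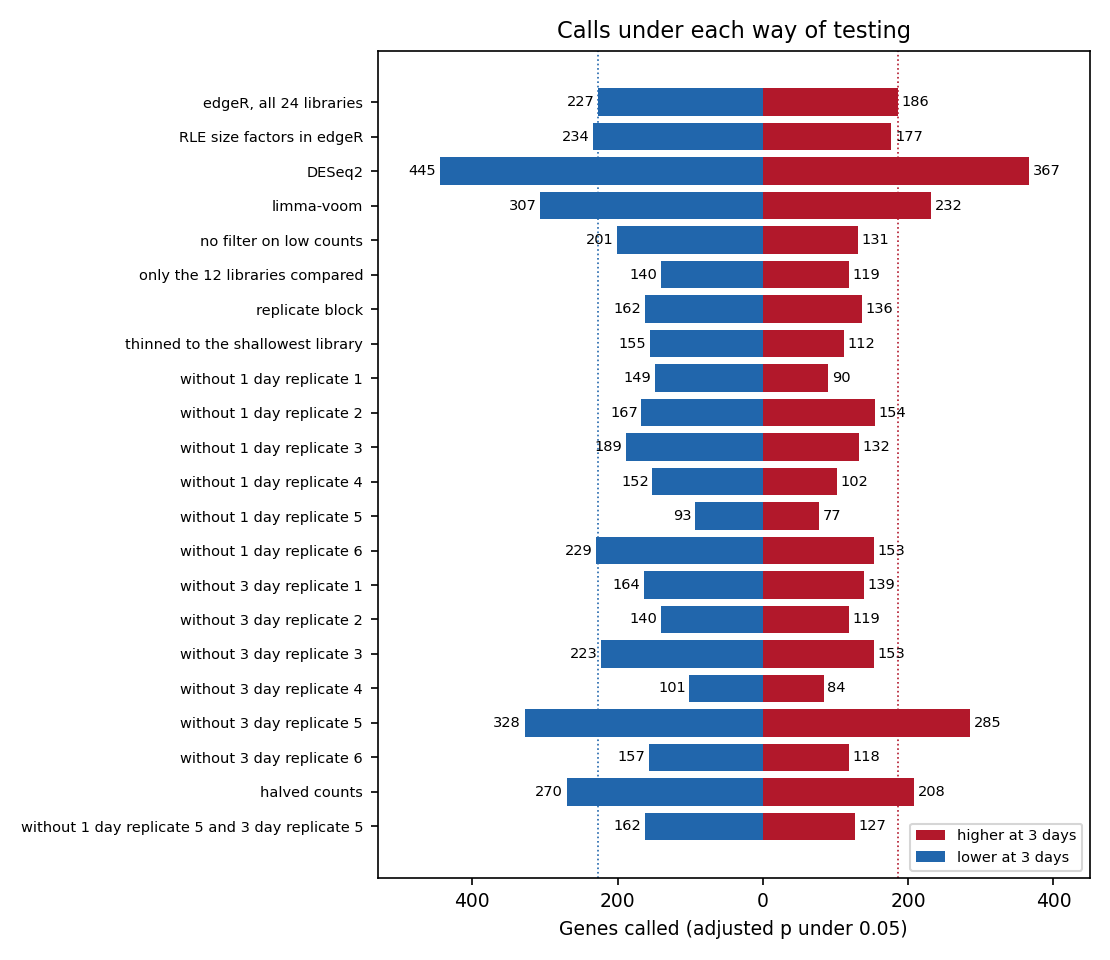
Number of genes called higher (red, to the right) and lower (blue, to the left) at 3 days under each way of testing, with dotted lines at the 186 and 227 genes of the edgeR fit with all libraries. The shortest bars are those without 1 day replicate 5 (77 and 93), and the longest are those of DESeq2 (367 and 445).

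Libraries of 3 days varied more among themselves than those of 1 day. The median SD of a gene's log2 CPM within the group was 0.214 at 3 days and 0.170 at 1 day, and it was larger at 3 days in 66.4% of the 15065 genes. After thinning every library to 15002476 counts the medians were 0.229 and 0.195, with 61.3% of genes larger at 3 days. Without 3 day replicate 5 the 3 day median was 0.179 and the share 54.0%, while leaving out any other 3 day library kept the median between 0.210 and 0.218. No test was made of this difference.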

How the data were processed

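Left ventricular RNA was sequenced after ribosomal RNA depletion as strand-specific, paired-end libraries, per the labels' protocols. The authors deposited raw counts per Ensembl gene ID. FastQC 0.12.1, STAR 2.7.11a, featureCounts 2.0.6 and the build mRatBN7.2 are named per the submitters' processing notes; for strand setting, annotation release and multi-mapped reads the sources used here give nothing, so overlapping genes and near-identical copies may share reads. The 26166 lines hold 23098 IDs, of which 781 are repeated with identical counts; each ID was used once. None of the IDs matched the RefSeq tables (GRCr8), so the gene lists, marker lists, coordinates and sequences were not used here. Even numbers made up 58.1 to 61.1% of counts from 1 to 200, so a count may not be 1 independent fragment.

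Counts were tested in R 4.3.3 with edgeR 4.0.16: filterByExpr by group (15065 genes kept), TMM factors, 1 model of all 24 libraries with a term per group, 20 residual degrees of freedom, two-sided quasi-likelihood F test of 3 days minus 1 day, Benjamini-Hochberg over the tested genes, called under 0.05. The common biological coefficient of variation was 0.169. The standard error is the log2 fold change over the square root of F. CPM uses TMM-adjusted totals, and log2 CPM a prior count of 0.5. Genes printed by ID are the 2 largest rises and 2 largest falls among called genes of at least 1 log2 CPM. The comparison, lists and rule were chosen with earlier results of these data known.

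On simulated counts for this comparison, 200 of 15065 genes were changed. The test found 54.7% of 1.5-fold changes, 83.3% of 2-fold changes and 93.2% of 4-fold changes, and 7 of its 158 calls were wrong. Each simulated gene had 1 spread shared by all groups, with no outlying library and no difference between runs. The real libraries differ in this, so the rates may not hold for them. Changes under 1.5-fold were not simulated, while the median called change was 1.27-fold upward and 1.32-fold downward. Over the 30 pairs of replicates within the groups, chi-square per degree of freedom was 19.3 to 111, so no library was counted as a repeat of another. Alternatives were edgeR with RLE factors, DESeq2 1.42.0, limma-voom (limma 3.58.1), no filter, only the 12 libraries, the replicate number as a block, thinned counts, and each of the 12 libraries left out. Halved counts, and leaving out replicate 5 of both times, were added after seeing the data.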

Additional observations from a re-analysis of the deposited data

Results flagged for a closer look

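Values of single libraries were compared with the rest of their group of 6 over 44 sets of values, and 4 stood apart by a gap of more than 0.625 of the range. Chance alone flags about 1 in 20 groups where values are independent and normally distributed. The genes printed by ID were picked for large changes in these same libraries, and measures of the same library are related. That rate therefore does not apply directly to these sets. The level of ENSRNOG00000009450 in 1 day replicate 1 was 147 CPM, where the other 1 day libraries had 15.0 to 46.0 CPM. The level of ENSRNOG00000020136 in 12 week replicate 2 was 14.2 CPM, against 2.85 to 6.71 CPM in the other 12 week libraries. For 3 day replicate 5, the mean correlation with its group was 0.960, against 0.972 to 0.978 for the others. On genes higher at 3 days, called without it, the same library held a position of 0.342, against 0.671 to 0.843.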

How the results depend on the processing

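No alternative reversed the direction of any of the 4 genes printed by ID. The counts of 186 higher and 227 lower genes moved by over 1.5 times with DESeq2, which called 367 and 445 and included all of the 413, and with only the 12 libraries compared, which gave 119 and 140. Thinning to the shallowest library gave 112 higher genes, and 155 lower ones. RLE factors gave 177 and 234, limma-voom 232 and 307, no filter 131 and 201, and halved counts 208 and 270. The fits without 1 library gave 77 to 285 higher and 93 to 328 lower genes. With the replicate number as a block, 136 higher and 162 lower genes were called. Deviations of same-numbered libraries correlated at -0.08 to 0.14, and 1 of 6 correlated best with its own number. That was replicate 1, at 0.14 against at most 0.03 with other numbers. These values show little sign of a pairing by number but cannot exclude one. Of the 21 alternatives, ENSRNOG00000033100 stayed called in 20, ENSRNOG00000019183 in 14, ENSRNOG00000020136 in 11 and ENSRNOG00000009450 in 5. The block ended the calls of ENSRNOG00000019183 (1.62), ENSRNOG00000020136 (-1.95) and ENSRNOG00000009450 (-1.32), as did the fit of only the 12 libraries (1.76, -1.90 and -1.61). Limma-voom ended those of ENSRNOG00000020136 (-1.82) and ENSRNOG00000009450 (-1.30), and thinning (-1.58) and no filter (-1.61) that of ENSRNOG00000009450. The call of ENSRNOG00000033100 was lost without replicate 5 of both times (1.10). The cause of these moves was not tested. Depth limits small changes in genes of low level.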
